A study of Mus musculus with 4 samples.

Results

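The 10 genes described here carry glucose into the cell and take it down glycolysis to lactate. They are the glucose transporter gene Slc2a1, the hexokinase gene Hk1, the phosphofructokinase genes Pfkl, Pfkm and Pfkp, the aldolase gene Aldoa, the enolase gene Eno1, the pyruvate kinase gene Pkm and the lactate dehydrogenase genes Ldha and Ldhb. They were chosen by symbol, for their place in the pathway, from the 55453 genes of a table of RNA-seq counts. Messenger RNA was sequenced in 4 libraries of mouse oocytes that were arrested before meiotic maturation, with the nucleus, the germinal vesicle, still present. The 2 control libraries carry the genotype label WT. The 2 others are labelled Parp12 knockdown, and they address how the transcriptome differs when Parp12, a gene of the ADP-ribose transferring PARP family, is reduced. All oocytes were separated from the ovary, with no other agent named in the labels. Not given in the sources used here are strain, age, how the knockdown was made and whether replicates came from separate collections. P-values therefore measure only the spread between these libraries, which may be technical.

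Glycolysis splits glucose into pyruvate, and lactate dehydrogenase interconverts pyruvate and lactate. Hexokinase and phosphofructokinase are the classical control points of the upper pathway. The fully grown mouse oocyte is known to use little glucose for energy. It takes up pyruvate, which the cumulus cells around it make by glycolysis, and oxidises it in its mitochondria.

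Library totals ran from 35805122 to 45230773 counts, and levels are given as CPM, counts per 1000000 of a library's total. With 3 counts as the limit that a count of 0 allows, a gene without counts could have up to 0.0663 to 0.0838 CPM. Parp12 itself had 316 and 230.1 CPM in control libraries against 0.752 and 2.40 CPM in knockdown libraries. Its log2 fold change was -7.51 (SE 0.34, edgeR adjusted p = 1.27e-07). The oocyte identity of the samples was clear: all 10 oocyte markers had counts, and the growth factor gene Gdf9 alone stood between 5547 and 6051 CPM. Of 14 granulosa and cumulus markers, 7 were at 0 in every library, among them Amh, Foxl2 and Inhba. The list summed to 49.1 and 52.2 CPM in control libraries and 43.8 and 43.0 CPM in knockdown libraries, led by Cyp19a1 and Kitl. In such bulk samples, fewer cells of a type and less RNA per cell cannot be told apart.

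Lactate dehydrogenase RNA in these oocytes was almost wholly Ldhb. Ldhb encodes the H subunit of the enzyme, the form usual in heart and other oxidative tissues. Ldha encodes the M subunit, the form usual in muscle and in cells that make lactate, and Ldhc is known as the germ cell form. In mm10, Ldhb lies on chromosome 6 (142490249 to 142507957, minus strand). Ldha (46841475 to 46855627) and Ldhc (46861203 to 46878142) are neighbours on the plus strand of chromosome 7. Because the result turns on telling these 3 genes apart, the 90-base coding stretch where Ldha and Ldhb are most alike is shown, from the GENCODE vM21 transcripts Ldhb-201, Ldha-202 and Ldhc-201. Capitals mark bases that differ from Ldhb.
Ldhb: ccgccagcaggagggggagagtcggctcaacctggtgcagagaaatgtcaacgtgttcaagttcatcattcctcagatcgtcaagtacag
Ldha: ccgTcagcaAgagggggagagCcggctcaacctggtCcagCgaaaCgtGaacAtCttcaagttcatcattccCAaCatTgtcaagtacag
Ldhc: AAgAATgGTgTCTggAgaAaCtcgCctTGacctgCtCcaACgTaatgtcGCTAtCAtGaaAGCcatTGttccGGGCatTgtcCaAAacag
Ldha differed from Ldhb at 13 of the 90 bases and Ldhc at 41. Over the aligned coding sequence, Ldha and Ldhb shared 71.5% of bases, Ldhb and Ldhc 64.8% and Ldha and Ldhc 73.3%, and the longest identical runs were 18, 19 and 20 bases.

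Ldhb stood at 3610.2 and 3901 CPM in control libraries and 3783 and 3936 CPM in knockdown libraries. The groups overlapped. By mean CPM it ranked 9 among all genes of the table, and per kilobase of summed exon length it ranked 5. The control mean was 3756 ± 206 CPM and the knockdown mean 3859.55 ± 108 CPM (SD, n = 2 each). Its log2 fold change, knockdown over control, was 0.04, with a 95% interval from -0.07 to 0.15 (SE 0.05, edgeR adjusted p = 0.955). Changes of 1.5-fold or more lie outside that interval. Ldhb made up 82.6% to 83.5% of all counts of the 10 genes.

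Ldha was at the edge of detection. It had 0 and 1 counts in control libraries and 14 and 18 counts in knockdown libraries, or 0 and 0.0244 CPM against 0.329 and 0.503 CPM. The knockdowns were higher and the groups did not overlap. Summed by group, 1 count in 86169136 stood against 32 in 78381621, a ratio of 35.2 (exact conditional 95% interval 5.88 to 1432, counting error only). That interval treats each count as an independent molecule and leaves out the spread between libraries. Over all genes, replicate pairs differed beyond sampling noise (chi-square per degree of freedom 34.7 for controls and 29.96 for knockdowns). No difference between the groups is therefore read from the interval. Among counts up to 30, however, 58.3% to 66.4% were even in these libraries, and whether reads or fragments were counted is not given. The edgeR fit, which also uses the spread between libraries, gave a log2 fold change of 4.81 with a 95% interval from -1.82 to 11.4 (adjusted p = 0.861). Ldha entered that fit only through the knockdown libraries. Of 3831 genes with a mean between 0.1 and 0.5 CPM, 174 (4.54%) had at most 1 count in both controls and at least 10 in both knockdowns, and 124 (3.24%) had the opposite pattern. At the same level, 43.8% of genes had at most 1 count in one control and at least 10 in the other. The summed granulosa and cumulus markers, given above, were lower in both knockdowns than in both controls. Of the leading genes, Kitl was lower in both knockdowns. Cyp19a1 overlapped between the groups, with 24.7 and 29.3 CPM in control libraries and 26.7 and 23.8 CPM in knockdown libraries. Whether such cells contributed to the counts of Ldha was not tested.

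Ldhc had 24.9 and 52.7 CPM in control libraries and 49.7 CPM in each knockdown. Only the first control was low, and the log2 fold change of 0.38 (95% interval -0.20 to 0.95) became -0.07 without it. Per kilobase of summed exons, Ldhb made up 98.7% to 99.3% of the 3 genes, Ldhc 0.681% to 1.32% and Ldha at most 0.00598%. Ldhd, which encodes the mitochondrial enzyme that oxidises D-lactate, had 47.9 ± 8.43 CPM in control libraries and 50.8 ± 9.83 CPM in knockdown libraries (SD, n = 2 each).

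**Figure D1:**
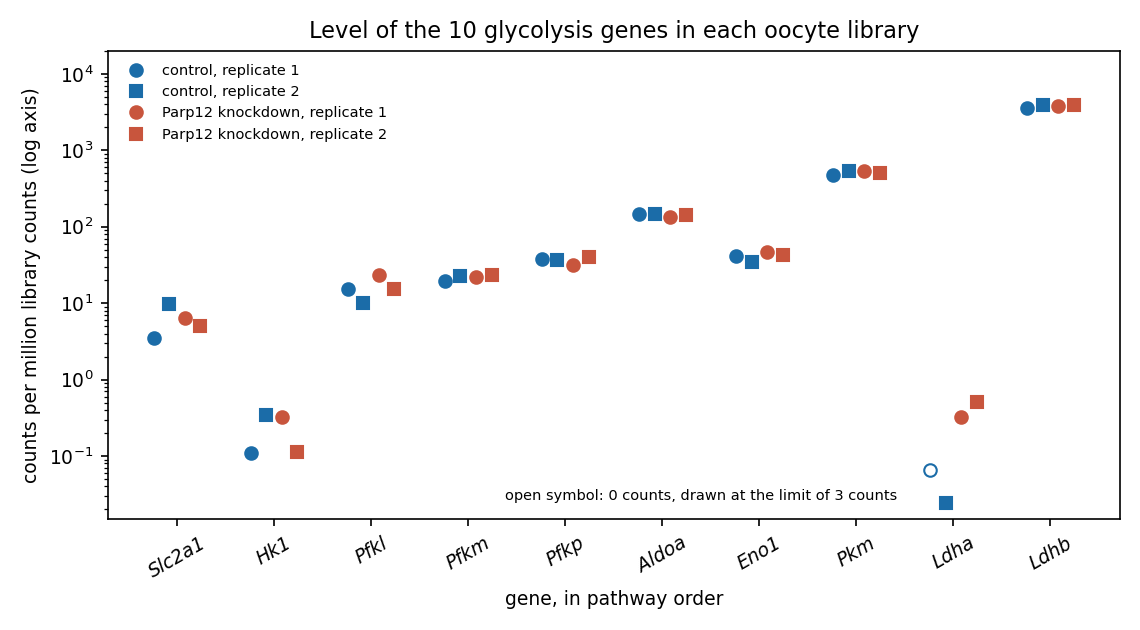
Level of each of the 10 genes in each of the 4 libraries, in CPM on a log axis, with controls and knockdowns marked by group. Ldhb lies between 3610.2 and 3936 CPM in every library, Pkm follows between 475 and 540.4, and Ldha and Hk1 lie below 1 CPM.

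Pyruvate kinase makes the pyruvate at the end of glycolysis, and its gene Pkm was the next most abundant of the 10. Pkm lies on chromosome 9 (59656368 to 59679375, plus strand). It had 475 and 540.4 CPM in control libraries and 534 and 509.5 CPM in knockdown libraries, so the groups overlapped. Its log2 fold change was 0.04 (95% interval -0.13 to 0.21, edgeR adjusted p = 0.966), which leaves out changes of 1.5-fold or more. The other pyruvate kinase gene, Pklr, known from liver and red cells, had 0 counts in every library. The M1 and M2 splice forms of Pkm cannot be told apart in counts per gene. Per kilobase of summed exons, Ldhb was 22.6 to 24.6 times as abundant as Pkm, and per kilobase of the median coding transcript 12.2 to 13.3 times.

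Enolase, the step before pyruvate kinase, was represented by Eno1 (chromosome 4, 150236721 to 150248879, plus strand). Eno1 had 41.6 and 34.8 CPM in control libraries and 47.0 and 42.5 CPM in knockdown libraries. The knockdowns were both higher, by a narrow margin. The log2 fold change of 0.23 (SE 0.20, 95% interval -0.20 to 0.65) did not pass the test (edgeR adjusted p = 0.916). Among Eno1, Eno1b, Eno2 and Eno3, Eno1 held 93.1% to 100% of the RNA per kilobase of summed exons. Eno4, another enolase gene of the list, was not part of that sum and had 0 and 132 counts in control libraries and 30 and 60 after knockdown. Eno2, the neuronal form, had 0 counts, and Eno3, the muscle form, had 34 counts in 1 control and 0 in the other libraries.

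Aldolase splits fructose bisphosphate into the triose phosphates. Aldoa (chromosome 7, 126795234 to 126809108, minus strand) had 147 and 146 CPM in control libraries and 133 and 140.3 CPM in knockdown libraries. Both knockdowns were lower, and the groups did not overlap. The log2 fold change of -0.11 (SE 0.11, 95% interval -0.34 to 0.12) did not pass the test (edgeR adjusted p = 0.934), and changes of 1.5-fold or more lie outside the interval.

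All 3 phosphofructokinase genes were expressed, between 10.1 and 40.7 CPM. They encode the liver-type, muscle-type and platelet-type subunits, which can assemble into mixed tetramers. Pfkm (chromosome 15, 98092589 to 98132451, plus strand) had 19.5 and 22.7 CPM in control libraries and 21.9 and 23.1 CPM in knockdown libraries. Pfkp (chromosome 13, 6579768 to 6648777, minus strand) had 37.9 and 36.7 CPM in control libraries and 31.2 and 40.7 CPM in knockdown libraries. In both genes the groups overlapped. Pfkl (chromosome 10, 77986947 to 78010083, minus strand) had 15.5 and 10.1 CPM in control libraries and 23.1 and 15.4 CPM in knockdown libraries. Its first control and second knockdown were nearly equal, so here too the groups overlapped. The log2 fold changes were 0.09 for Pfkm (95% interval -0.47 to 0.65), -0.07 for Pfkp (-0.53 to 0.39) and 0.60 for Pfkl (-0.14 to 1.34), with edgeR adjusted p of 0.976, 0.978 and 0.841. Relative to its mean, Pfkl had the widest spread of the 3, with 12.8 ± 3.81 CPM against 19.3 ± 5.44 CPM (SD, n = 2 each). In CPM, the SD of Pfkp in knockdown libraries was larger, at 6.69.

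Which phosphofructokinase led depended on the length used. Per kilobase of summed exons, Pfkm held a mean of 56.0%, Pfkp 23.6% and Pfkl 20.4% of the 3. Per kilobase of the median coding transcript, Pfkp led with 47.2%, followed by Pfkm with 34.0% and Pfkl with 18.8%. The exons of Pfkp sum to 13401 bases, while its median coding transcript has 3412. The summed level of the 3 genes was 11.0 CPM per kilobase of summed exons in each control and 12.3 in each knockdown. The groups did not overlap on either length (22.2 and 21.5 against 23.1 and 24.3 per kilobase of coding transcript). Sums of other steps did not overlap either. Enolase was higher in both knockdowns, while aldolase, glyceraldehyde phosphate dehydrogenase and phosphoglycerate kinase were lower. Among all tested genes, 34.9% did not overlap, and nothing particular to phosphofructokinase is read from its sum.

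**Figure D2:**
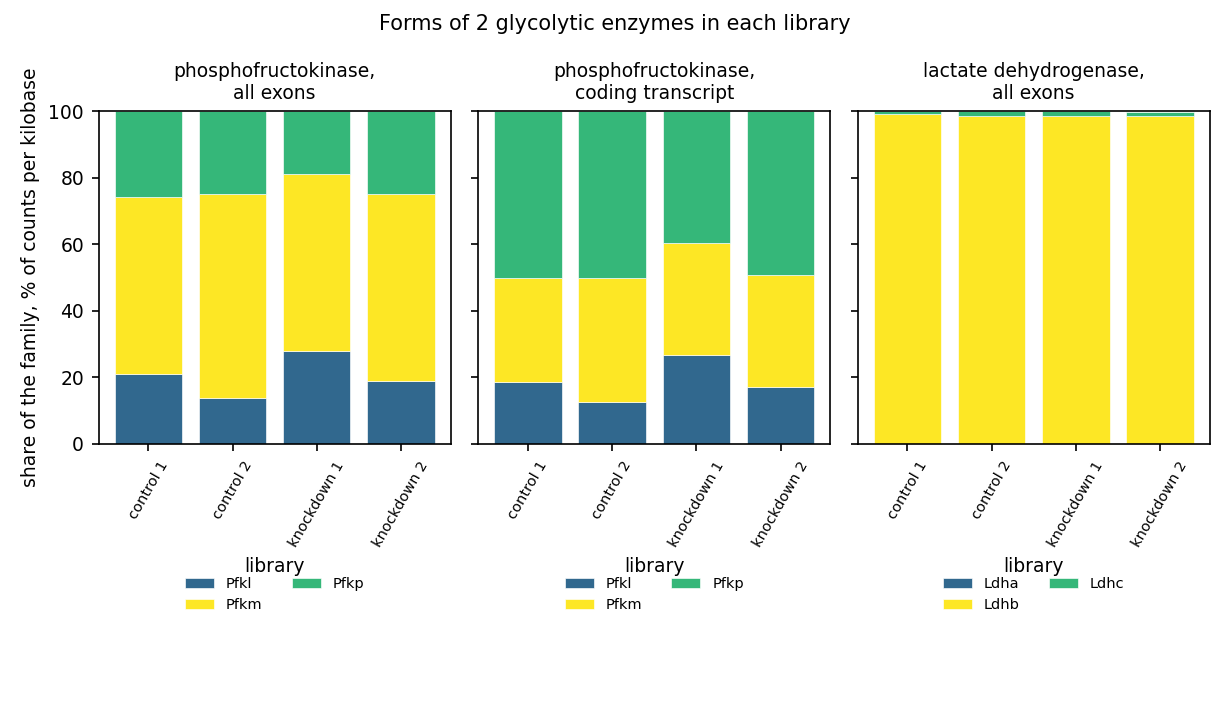
Share of each gene within its enzyme family in each library, in percent of the family's counts per kilobase of summed exons, with a second panel for phosphofructokinase per kilobase of the coding transcript. Ldhb fills 98.7% to 99.3% of lactate dehydrogenase in every library, and the phosphofructokinases are divided among 3 genes.

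The members that bring glucose in and phosphorylate it had low levels. Slc2a1, which encodes the widespread glucose transporter GLUT1, lies on chromosome 4 (119108711 to 119137983, plus strand). It had 3.54 and 9.65 CPM in control libraries and 6.34 and 4.97 CPM in knockdown libraries. The 2 controls were the lowest and the highest of the 4 libraries, and the knockdowns lay between them. The log2 fold change of -0.18 (SE 0.56, 95% interval -1.38 to 1.03, edgeR adjusted p = 0.979) turned to 0.68 without the second control. Slc2a1 held 16.4% to 26.7% of the RNA of the 10 Slc2a family genes listed, per kilobase. Slc2a12, which encodes GLUT12, held 24.5% to 35.3% and had 11.3 ± 4.16 CPM in control libraries and 10.9 ± 2.05 CPM in knockdown libraries (SD, n = 2 each).

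Hk1, the hexokinase gene used by most tissues, was barely detected. It lies on chromosome 10 (62268855 to 62379908, minus strand) and had 5 and 14 counts in control libraries and 14 and 4 in knockdown libraries, between 0.111 and 0.342 CPM. One library of each group was high and the other low. The 95% interval of its log2 fold change of 0.06 ran from -3.83 to 3.94 (edgeR adjusted p = 0.999), which leaves in a difference of many-fold in either direction. Hk2 had 20 counts in the first control only and Hkdc1 16 counts in the second control only. Hk3 had 0 counts in every library.

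Compared per kilobase of summed exons, the 10 genes spread over several orders of magnitude. Ldhb stood at 2425 ± 93.5 CPM per kilobase (SD over the 4 libraries), Pkm at 103 ± 5.92 and Aldoa at 38.1 ± 1.77. Eno1 (7.71) and Pfkm (6.52) followed, with ranges over the 4 libraries that overlapped. Pfkp (2.73), Pfkl (2.40) and Slc2a1 (1.75) came next, each overlapping its neighbour in the order. Ldha (0.0647) and Hk1 (0.0262) were last and overlapped. With the length of the median coding transcript the order differed in 1 place, with Pfkp (10.7) above Pfkm (7.74).

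The steps of the pathway other than hexokinase were also compared as sums over the main genes of a step (without Eno4, Aldoart1 and Aldoart2), in CPM per kilobase of summed exons. Glucose transport lay at 6.15 to 10.3 and phosphofructokinase at 11.0 to 12.3. Glucose phosphate isomerase (Gpi1, 19.0 to 20.8), triose phosphate isomerase (Tpi1, 15.8 to 22.7) and glyceraldehyde phosphate dehydrogenase (Gapdh, 24.4 to 28.1) had middle levels. Phosphoglycerate mutase was low, at 1.94 to 3.70. Bisphosphoglycerate mutase, encoded by Bpgm, was far above it, at 611 to 663. This enzyme is best known from red blood cells, where its product lowers the oxygen affinity of haemoglobin. Of the 8 blood and endothelium markers, 6 had a count, and the list summed to 105 to 114 CPM, led by Pecam1. Its red cell genes were Hbb-bt, at 0 in every library, Hbb-bs and Hba-a1, at no more than 0.0244 and 0.486 CPM, and Alas2, at 0.155 and 1.66 CPM in control libraries and 0 after knockdown. Their part in the level of Bpgm was not tested. Bpgm ranked 44 among all genes per kilobase and was 5.83 to 6.51 times as abundant as Pkm, while Ldhb was 3.76 to 3.95 times as abundant as Bpgm. Bpgm had 2194 and 2259 CPM in control libraries and 2237 and 2379 CPM in knockdown libraries, a log2 fold change of 0.05 (95% interval -0.07 to 0.17, edgeR adjusted p = 0.941).

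**Figure D3:**
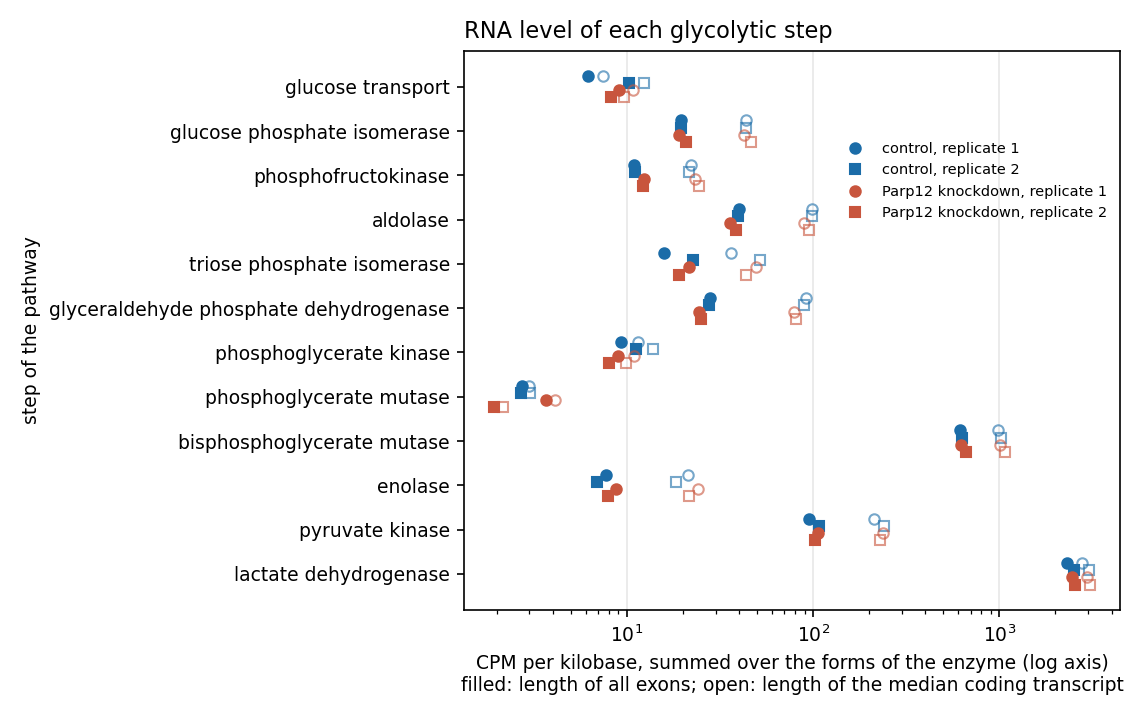
Summed CPM per kilobase of summed exons for each step from glucose transport to lactate dehydrogenase, hexokinase left out, on a log axis, with 1 filled point per library and open points for the length of the coding transcript. Phosphoglycerate mutase is lowest (1.94 to 3.70), and lactate dehydrogenase is highest (2315 to 2538), with bisphosphoglycerate mutase next (611 to 663).

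None of the 10 genes passed the test between knockdown and control. The edgeR fit called 0 of 10 at an adjusted p under 0.05, and 0 of 10 had an unadjusted p under 0.05 in either direction. Over all genes it called 1 of 15868 (0.0063%), which was Parp12, and 5.51% had an unadjusted p under 0.05 (2.94% higher and 2.57% lower in knockdown libraries). DESeq2, which called 1.86% of genes, also called 0 of the members, of which it gave Hk1 and Ldha no adjusted p. The log2 fold changes of the 10 genes had a median of 0.05, with 7 above 0 and 3 below. The median over all tested genes was 0.00, with 50.4% above 0. Without the 2 genes under 1 CPM, the median was 0.04. In 3 of the 10 genes, Aldoa, Eno1 and Ldha, the groups did not overlap, against 34.9% of all tested genes. Of the 7 with a mean of at least 10 CPM, the groups did not overlap in 2, against 35.5% of all tested genes at that level.

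The intervals say what sizes of change these libraries leave in. For Pfkm, Pfkp, Aldoa, Eno1, Pkm and Ldhb, 6 of the 10, the 95% interval left out a 2-fold change in either direction. For Pfkp, Aldoa, Pkm and Ldhb it also left out a 1.5-fold change. Slc2a1, Pfkl, Hk1 and Ldha had intervals that hold a 2-fold change in at least 1 direction. Leaving out 1 library turned the sign of the log2 fold change of Slc2a1, Hk1, Pfkm, Pfkp, Pkm and Ldhb and did not turn that of Pfkl, Aldoa, Eno1 or Ldha.

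Summed, the 10 genes took 4350 and 4702 CPM in control libraries and 4580.04 and 4713 CPM in knockdown libraries. The control sum was 4526 ± 249 CPM and the knockdown sum 4646 ± 93.8 CPM (SD, n = 2 each), a log2 ratio of 0.04. Without Ldhb the sums were 770.2 ± 43.1 and 787 ± 13.9 CPM. Both differences were smaller than the spread between the controls. An exact permutation test with 2 libraries a group cannot go below 0.333, so none is given for these sums.

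**Figure D4:**
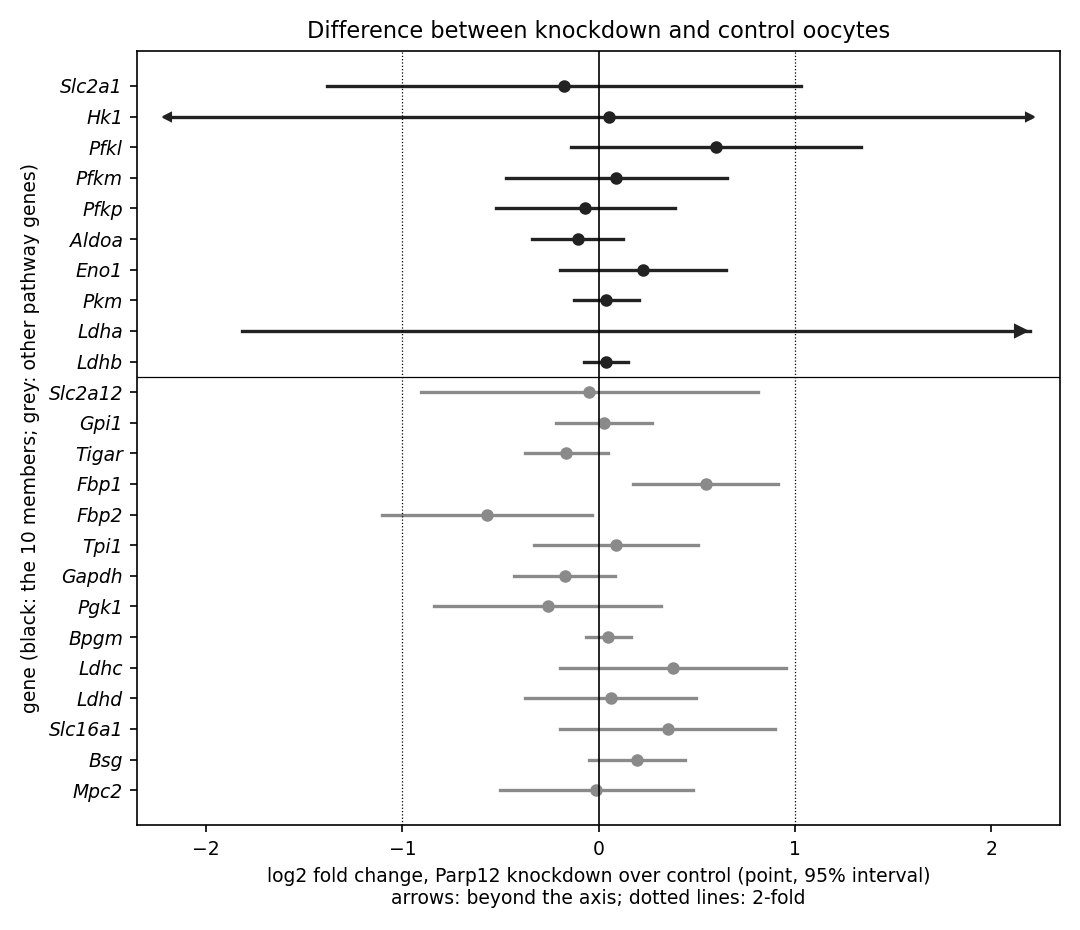
Log2 fold change of each of the 10 genes and of the other pathway genes with a mean of at least 10 CPM, knockdown over control. The 95% intervals are from the edgeR fit (arrows mark values beyond the axis, where the point of Ldha, at 4.81, lies). Other genes named in the text, with lower means, are not drawn. The intervals of Ldhb, Pkm and Aldoa are narrow around 0, and that of Pfkl runs from -0.14 to 1.34. Those of Fbp1 and Fbp2 lie on opposite sides of 0, but neither gene passed the test (edgeR adjusted p = 0.835 for both).

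The other genes of the pathway gave the same count of calls. Of 45 listed, 7 had 0 counts in every library and 30 could be tested. The edgeR fit called 0 of the 30, and 3 had an unadjusted p under 0.05: Pfkfb2 and Fbp1, which were higher, and Fbp2, which was lower. DESeq2 called 1 of them, Fbp1, against 1.86% of all genes that it gave an adjusted p. The median log2 fold change was 0.08, with 19 above 0 and 11 below, and in 12 of the 30 the groups did not overlap. Over all tested genes, 5.51% had an unadjusted p under 0.05, 50.4% lay above 0 and 34.9% did not overlap, which are the shares to set these counts against. The 12 include Slc2a2 and Slc16a7, which entered the fit only through the control libraries, so the filter bears on their direction. Of the 14 with a mean of at least 10 CPM, 2 were higher and 4 lower without overlap, beside 35.5% of all tested genes at that level.

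The genes that set the balance of fructose phosphates held 5 of those 12 among 7 tested, beside 34.9% of all tested genes, and nothing particular to them is read from this count. Fbp1 and Fbp2 encode the fructose bisphosphatases, which run the phosphofructokinase step backwards in gluconeogenesis. They are neighbours on the minus strand of chromosome 13 (Fbp2 at 62836877 to 62858422, Fbp1 at 62864753 to 62888282). Fbp1 had 39.3 and 44.9 CPM in control libraries and 63.2 and 59.4 CPM in knockdown libraries. Fbp2 had 27.7 and 29.6 CPM in control libraries and 19.4 and 19.1 CPM in knockdown libraries. In neither gene did the groups overlap, and the directions were opposite. The log2 fold changes were 0.55 for Fbp1 (SE 0.17, 95% interval 0.17 to 0.92) and -0.57 for Fbp2 (SE 0.25, -1.10 to -0.03), with an edgeR adjusted p of 0.835 for both. The DESeq2 adjusted p was 0.0115 for Fbp1 and 0.0632 for Fbp2. The ratio of Fbp1 to Fbp2 per kilobase of summed exons, a measure chosen after their values were seen, was 1.23 and 1.31 in control libraries and 2.80 and 2.68 in knockdown libraries. Pfkfb2 encodes an enzyme that makes and removes the regulatory fructose bisphosphate that activates phosphofructokinase, an isomer of the one that aldolase splits. Pfkfb2 had 0 and 0.733 CPM in control libraries and 3.19 and 1.76 CPM in knockdown libraries. Its log2 fold change of 2.85 (95% interval 0.15 to 5.55) did not pass the test (edgeR adjusted p = 0.835). Tigar, which encodes a fructose bisphosphatase-like enzyme, had 192 ± 2.29 CPM in control libraries and 172 ± 10.1 CPM in knockdown libraries (SD, n = 2 each, log2 fold change -0.16, edgeR adjusted p = 0.843).

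Among the middle steps, Gapdh had 116 and 114 CPM in control libraries and 101 and 104 CPM in knockdown libraries, a log2 fold change of -0.17 (95% interval -0.43 to 0.08, edgeR adjusted p = 0.873). Pgk1, the phosphoglycerate kinase gene, was also lower in both knockdowns, at 23.0 ± 3.03 against 19.1 ± 1.35 CPM (SD, n = 2 each, log2 fold change -0.26, edgeR adjusted p = 0.937). Gpi1 (126 ± 0.349 against 128 ± 8.23 CPM) and Tpi1 (53.0 ± 13.5 against 55.8 ± 4.78 CPM) overlapped between the groups. Of the transporter genes without a call, Slc2a2 had 20 and 17 counts in control libraries and 0 in both knockdowns. With 3 counts per library as the floor of the knockdowns, the control mean was 5.56 times that floor. This ratio leaves out the counting error of the controls and the spread between libraries, and no difference is read from it. Of 3831 genes with a mean between 0.1 and 0.5 CPM, 124 (3.24%) had at most 1 count in both knockdowns and at least 10 in both controls. Slc2a2 entered the edgeR fit only through the control libraries. That fit, which uses the spread between libraries, gave Slc2a2 a 95% interval of the log2 fold change from -16.2 to 1.88 (adjusted p = 0.843). Slc2a5, known as a fructose transporter gene, went the other way, with 14 and 0 counts in control libraries against 50 and 38 (log2 fold change 2.76, 95% interval -0.66 to 6.19, edgeR adjusted p = 0.841). Slc2a3 (20 counts) and Slc2a4 (14 counts) were each seen in the second knockdown only.

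Some of these counts are uncertain because the genes share sequence with others. The share of 50-base stretches of the coding transcripts that also occur in another annotated gene was 57.2% for Eno1, 36.3% for Pkm, 27.0% for Ldhb, 16.3% for Pfkp, 15.3% for Ldha and 8.08% for Aldoa. Over all its transcripts, Ldha shared such stretches with 328 genes, with up to 41889 counts in a library. Whether reads of those genes contributed to the few counts of Ldha was not tested. The copy behind most of the Ldhb share, Gm5514, had 1302 counts over the 4 libraries, and the one behind most of the Eno1 share, Eno1b, had 0. Of the 50-base stretches of Eno1b, 85.2% also occur in other genes and 76.4% in Eno1, so its count of 0 does not show that it had no RNA. Gapdh shared 78.3%, Pgk1 68.0%, Pgam1 41.5% and Bpgm 0%. How reads with several alignments were treated is not given, so the low level of phosphoglycerate mutase may be an undercount. The levels of Gapdh, Pgk1 and Eno1, which shared more, have the same limit. So do their places in the comparisons of levels above, including those with Bpgm. Exons of Pfkp overlap Pitrm1 on the opposite strand, and those of Slc2a1, Hk1, Pfkm and Aldoa also overlap a gene on the opposite strand. Those of Pfkfb2 overlap Yod1 on the opposite strand and Gm29427 on the same strand. The strand setting of the counting is not stated in the labels, so reads of such pairs cannot be told apart.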

How the data were processed

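Groups and replicate numbers come from the sample titles. The deposited table holds raw counts per gene, per the file headers in the layout of featureCounts, with exon coordinates and summed exon length. Per the labels' protocols, libraries were made from poly(A) RNA. Tools in the submitters' processing notes, listed there without roles, are STAR 2.7.5b, Trim Galore 0.6.4, DESeq2 1.28.1 and featureCounts 2.0.0, with the build mm10. Not given in the sources used here is how reads with several alignments were treated. Replicate pairs differed beyond sampling noise (chi-square per degree of freedom 34.7 for controls and 29.96 for knockdowns).

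The counts were fitted with edgeR 4.0.16 in R 4.3.3: filterByExpr (minimum count 10, total 15) left 15868 genes, followed by TMM factors, glmQLFit (robust) and glmQLFTest, two-sided, with Benjamini-Hochberg adjustment over all of them at 0.05. Intervals use the SE from the F statistic. The fit was also run on simulated data, but the outcome is not reported here and nothing is read from it. Levels of different genes were compared as CPM per kilobase of summed exons, with the median coding transcript as an alternative. Lengths, shared 50-base stretches and sequences come from GENCODE vM21, where all 56 symbols looked up were found, 55 with the same coordinates. The exception is Aldoa, whose entry joins 2 annotated genes.

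The members and all gene lists were chosen with earlier results of these data known. The rule named Parp12, the 10 members, and other pathway genes that were called, had a mean of at least 10 CPM, or were at 0 in 1 group with 10 or more counts in a library of the other. Other genes named, such as Pfkfb2, Slc2a5, Slc16a7, Eno4 and Pklr, were chosen after their values were seen. Some genes of the lists are not reported here. Alternatives were other scalings, filters, DESeq2 1.42.0, limma-voom (limma 3.58.1), the legacy edgeR fit, the replicate block and each library left out in turn.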

Additional observations from a re-analysis of the deposited data

How the results depend on the processing

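No alternative run called a member, with Hk1 and Ldha left untested by the 1 CPM filter and without an adjusted p in DESeq2, so that these 2 settings gave 0 of 8. The count over all genes was 1 with edgeR, 8 when genes needed 1 CPM or more in each library of one group, 305 with DESeq2, 0 with limma-voom (where Parp12 had a log2 fold change of -7.73 and an adjusted p of 0.280) and 1 to 2 when a library was left out (2 without the first knockdown). DESeq2 called 1 other pathway gene, Fbp1, at 0.54. The replicate numbers did not pair the libraries (correlation of their differences 0.00802 over 15868 genes), and adding the replicate number to the fit as a block gave 1 gene and 0 members. Of 128 log2 fold changes of members under alternatives, 119 kept their direction and their side of the threshold and 9 changed direction. In ranges over the libraries left out, Slc2a1 ran from -0.74 to 0.68 (highest without the second control), Hk1 from -0.96 (without the first knockdown, and -0.56 without the first control) to 1.02, Pfkp from -0.26 to 0.13 (highest without the first knockdown), and, lowest without the first control, Pfkm from -0.0045 to 0.19, Pkm from -0.039 to 0.12 and Ldhb from -0.0042 to 0.082. Hk1 was also at -0.032 with DESeq2 and -0.031 with the legacy fit. Of the other genes named, Slc2a12 ran from -0.39 to 0.36 (0.15 without the first knockdown), Gpi1 from -0.038 to 0.10, Tpi1 from -0.15 to 0.35 (-0.0059 without the first knockdown), Ldhc from -0.072 to 0.98, Ldhd from -0.14 to 0.27 (-0.11 without the second control) and Mpc2 from -0.12 to 0.10. The median of the members ran from -0.017 to 0.15 (highest without the second control) and the log2 ratio of their summed level from -0.017 to 0.10. With raw counts, the mean shares were 29.3% for Pfkm and 49.3% for Pfkp, and with the coding transcript length 34.0% and 47.2%. A fit without 1 library takes the spread of the remaining one from the other group. Apart from the lengths and the libraries left out, which change by construction, the cause was not tested. Each value of Hk1 and Ldha above 0 rests on 1 to 18 counts, and depth and the spread between libraries were not separated in their intervals.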

Other observations

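The genes that move lactate and pyruvate across membranes were read in the same fit. Bsg, which encodes basigin, the partner that brings monocarboxylate transporters to the cell surface, had 108 and 113 CPM in control libraries and 125 and 129 CPM in knockdown libraries. Both knockdowns were higher, and the log2 fold change of 0.20 (SE 0.11, 95% interval -0.05 to 0.44) did not pass the test (edgeR adjusted p = 0.842). Slc16a1, which encodes the monocarboxylate transporter MCT1, had 21.9 and 28.5 CPM in control libraries and 27.1 and 37.7 CPM in knockdown libraries, and the groups overlapped (log2 fold change 0.35, 95% interval -0.20 to 0.90, edgeR adjusted p = 0.885). Mpc2, which encodes a subunit of the mitochondrial pyruvate carrier, had 28.9 ± 3.51 CPM in control libraries and 28.6 ± 0.336 CPM in knockdown libraries (SD, n = 2 each). Slc16a7, which encodes the monocarboxylate transporter MCT2, was lower in both knockdowns, with 42 and 32 counts against 0 and 7 (log2 fold change -3.22, 95% interval -7.38 to 0.93, edgeR adjusted p = 0.843). Slc16a7 entered that fit only through the control libraries. Of the 6 transport genes listed, the edgeR fit called 0, against 0.0063% of all tested genes, and 0 had an unadjusted p under 0.05, against 5.51%. In 2 of the 6 the groups did not overlap, against 34.9%.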
